A study of Mus musculus with 2 samples.

Results

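The 10 genes described here belong to the antioxidant program of NRF2 and were chosen by symbol, as the rows for *Nfe2l2*, *Keap1*, *Slc7a11*, *Gclc*, *Gclm*, *Txnrd1*, *Srxn1*, *Prdx1*, *Nqo1* and *Sod2* among the 37451 genes of the table. RNA-Seq was performed on 1 library of WT and 1 library of ΔM bone marrow-derived macrophages (BMDMs), which served as controls without crosslinking for the mapping of tristetraprolin (TTP) binding. The WT cells are labeled C57BL/6 and came from littermates. The ΔM cells are labeled C57BL/6 TTP fl/fl LysMCre, which means that the TTP gene *Zfp36* is floxed and is removed where the lysozyme M gene drives Cre, in myeloid cells and not in the whole animal. How many mice gave cells to each culture, and whether the littermates carried floxed alleles or Cre, is not stated in the sources used here. Both libraries came from mice of 7 to 9 weeks, and both cultures received 100 µM 4-thiouridine for 16 h before the experiment and 10 ng/ml LPS for 6 h. No unstimulated cells and no cells without 4-thiouridine are in this table, so the response of these genes to either agent was not measured here. With 1 library per genotype there is no replicate check and no p-value, and a difference between genotypes cannot be told apart from a difference between cultures.

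NRF2, encoded by *Nfe2l2*, is a transcription factor that KEAP1 holds at a low level by handing it to a ubiquitin ligase. When oxidants or electrophiles modify KEAP1, NRF2 accumulates, pairs with a small MAF protein and binds antioxidant response elements near genes for glutathione synthesis, thioredoxin-dependent reduction and detoxification. LPS-stimulated macrophages produce oxidants themselves, and in these cells *Sod2* is also a well known target of NF-κB, so that it responds to more than NRF2.

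The core of the antioxidant response element, TGACNNNGC, was searched on both strands of RefSeq promoter windows, each reaching from 250 bases before to 50 bases after a gene's start. The table of promoters holds 9 of the 10 genes, all but *Gclc*, in 11 windows. The element occurred in 5 of these windows, in *Nfe2l2*, *Gclm*, *Srxn1*, *Prdx1* and *Txnrd1*, and in 12.4% of all 32851 windows. The matches are shown because NRF2 is known to act through this element, with the element in capitals and 8 bases on either side, each read on the strand that spells TGACNNNGC.
*Nfe2l2*, chr2:75542944-75542968 (NCBIM37, minus strand, the gene's own strand, element 240 bases before the start): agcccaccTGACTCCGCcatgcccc
*Gclm*, chr3:121948333-121948357 (minus strand, opposite to the gene, 134 bases before the start): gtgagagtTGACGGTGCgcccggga
*Prdx1*, chr4:116358063-116358087 (minus strand, opposite to the gene, 133 bases before the start): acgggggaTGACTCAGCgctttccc
*Txnrd1*, chr10:82321851-82321875 (minus strand, opposite to the gene, 92 bases before 1 of its starts): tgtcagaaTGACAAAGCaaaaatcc
*Srxn1*, chr2:151931280-151931304 (minus strand, opposite to the gene, 28 bases after the start): tctcactcTGACCTAGCtgcccact
The 3 bases between TGAC and GC differ in each of the 5 genes. A match of letters is a description and not a site of binding, which was not measured here. Sequence outside these windows was not searched, so a gene without a match here may have the element elsewhere.

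TTP-bound positions were mapped by the study in BMDMs after 6 h of LPS by PAR-iCLIP, in which 4-thiouridine in RNA is crosslinked to bound protein and the crosslinked position is read by sequencing. Sequences of 13 sites could be read for *Sod2*, *Prdx1*, *Txnrd1* and *Nfe2l2*, and all 13 matched NCBIM37 at their stated positions. By the GENCODE annotation 4 sites lay in a 3′ UTR, 8 in introns and 1 in an exon annotated neither as coding sequence nor as UTR. Examples are shown because they are the positions at which TTP, whose gene is deleted in ΔM cells, was mapped on these transcripts, in the sense orientation with T for U and with capitals for TATTTAT, the AU-rich core favored by TTP.
*Prdx1* 3′ UTR, chr4:116372069-116372091 (plus strand): taattcttttttcttcttttttt
*Txnrd1* 3′ UTR, chr10:82360209-82360226 (plus strand): ttattttttaagtttttt
*Txnrd1* 3′ UTR, chr10:82360194-82360206 (plus strand): ttcagttttattt
*Txnrd1* intron, chr10:82350749-82350766 (plus strand): tTATTTATttaatgtata
*Nfe2l2* intron, chr2:75528667-75528691 (minus strand): ttttttttttttttttttttttttc
The pentamer ATTTA was found in 0 of the 4 sites in 3′ UTRs and in 3 of the other 9, each of which also held TATTTAT. The sites in the 3′ UTRs of *Prdx1* and *Txnrd1* are rich in T, and the *Nfe2l2* intron site is a run of T that ends in C.

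The libraries matched their labels in the genes that could be checked. *Zfp36* was at 65.3 FPKM in WT against 16.7 FPKM in ΔM. All 8 macrophage markers were detected in both libraries, whereas the 25 markers of T cells, B cells, neutrophils, mast cells or basophils, dendritic cells, erythroid cells and stromal or endothelial cells summed to 1.79 FPKM in WT against 1.73 FPKM in ΔM, with 12 and 9 of them at 0. Among the macrophage markers, *Lyz2*, the locus that carries the Cre, was at 2481 FPKM in WT against 1356 FPKM in ΔM, and the part of this difference in the results below was not tested. In RNA from whole cultures, fewer cells of a type and less RNA per cell cannot be told apart. FPKM scales the number of sequenced fragments to exon length and to the mapped fragments of the library, so that levels can be compared between genes per length. Depth is not stored with it, and the steps between the lowest values put it at about 35600000 fragments in WT and 31800000 in ΔM. The 95% counting intervals below derive from these estimates, are approximate and cover counting error only.

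Before the genotypes are compared, the levels of the 10 genes show how unevenly this program was expressed. In WT they ranged from 0.87 to 147.63 FPKM, and in ΔM from 0.46 to 158.34 FPKM. *Sod2* and *Prdx1* together held 74.5% of the summed FPKM of the 10 genes in WT and 75.4% in ΔM. *Sod2*, the superoxide dismutase of mitochondria, exceeded 97.0% of protein-coding genes in WT, counted among those whose mean reached 1 FPKM. *Gclc*, *Nqo1* and *Slc7a11* stayed under 2 FPKM in both libraries, and the other 5 genes lay between these extremes. In WT the order was *Sod2*, *Prdx1*, *Nfe2l2*, *Txnrd1*, *Gclm*, *Keap1*, *Srxn1*, *Gclc*, *Nqo1* and *Slc7a11*. Neighbors whose counting intervals overlapped were *Sod2* and *Prdx1*, *Gclc* and *Nqo1*, and *Nqo1* and *Slc7a11*. In ΔM the order was *Prdx1*, *Sod2*, *Nfe2l2*, *Gclm*, *Txnrd1*, *Keap1*, *Srxn1*, *Nqo1*, *Gclc* and *Slc7a11*, and only the intervals of *Nfe2l2* and *Gclm* overlapped. *Sod2* and *Prdx1*, *Txnrd1* and *Gclm*, and *Gclc* and *Nqo1* thus stood in the opposite order in the libraries.

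**Figure D1:**
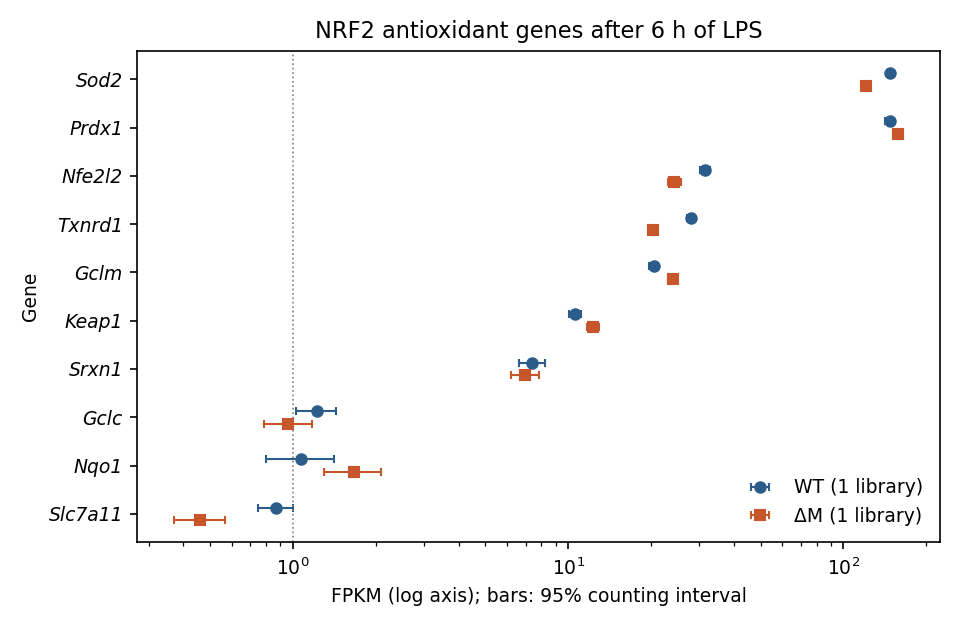
FPKM (log axis) of the 10 genes in the WT library (circles) and the ΔM library (squares), with 95% counting intervals as bars and a dotted line at 1 FPKM. *Sod2* and *Prdx1* lie above 100 FPKM in both libraries, and *Slc7a11* lies lowest at 0.87 FPKM in WT against 0.46 FPKM in ΔM.

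None of the 10 genes differed by as much as 1.5-fold between WT and ΔM on the scale used to compare all genes, the log2 ratio after adding 1 FPKM to both values. Of the 9 genes whose mean FPKM reached 1, 0 passed 1.5-fold, beside 18.7% of the 10765 genes with such a mean. Of these 10765 genes 11.2% were higher in ΔM and 7.51% lower. Among protein-coding genes alone, the class of all 10 members, 10.2% passed (4.82% higher and 5.36% lower). With only 9 members, a count of 0 cannot be told apart from that share. *Slc7a11*, with a mean of 0.67 FPKM, was under the minimum. The median log2 ratio of the 9 genes was -0.07, beside 0.03 over all genes and -0.0015 over protein-coding genes, and the 9 genes ranged from -0.44 for *Txnrd1* to 0.37 for *Nqo1*. At a ratio of 5 to 4 in place of 1.5-fold, 3 of the 9 genes passed (*Nfe2l2* and *Txnrd1* lower and *Nqo1* higher in ΔM), beside 36.6% of all genes. Of the 9, 3 lay between the quartiles of the protein-coding genes, -0.19 and 0.18.

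**Figure D2:**
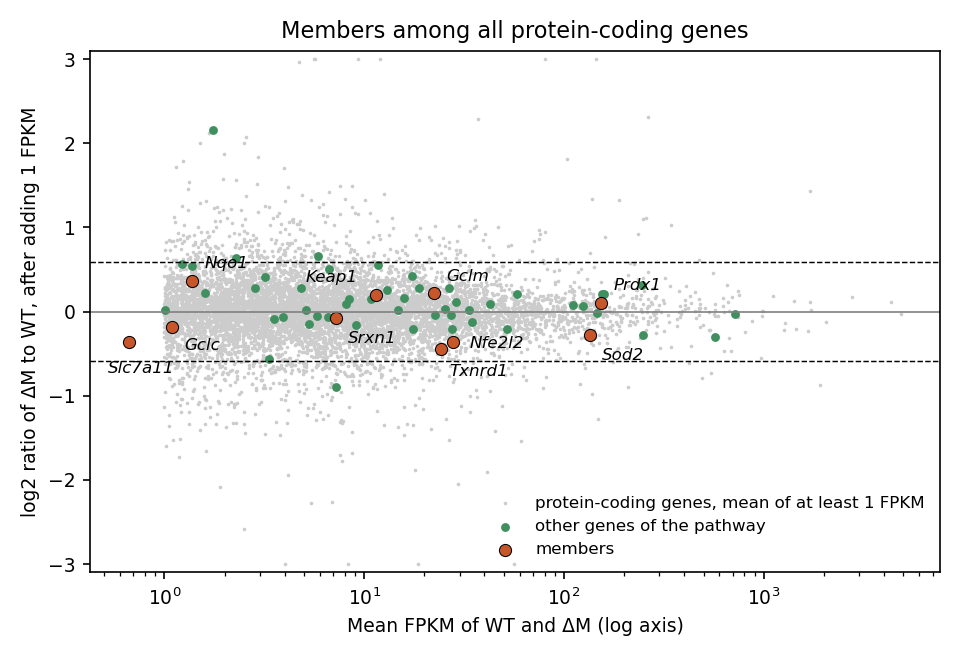
Log2 ratio of ΔM to WT after adding 1 FPKM against the mean FPKM of both libraries (log axis), for protein-coding genes (grey, 10 of them drawn at the edge of the plot), other genes of the pathway (green) and the 10 members (orange, named). The dashed lines stand at 1.5-fold, and each member lies between them.

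The members differed in direction. With all 10 counted, 4 were higher and 6 lower in ΔM. For 4 of the 9 genes over the minimum, the counting interval of the FPKM ratio lay above 1, for 3 it lay below 1 and for 2 it held 1. Such intervals left out 1 in 50.4% of 8046 protein-coding genes, those with a median transcript over 300 nt, above 1 in 24.2% and below 1 in 26.2%. At this depth the intervals are narrow for most genes, and they do not hold the spread between cultures.

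**Figure D3:**
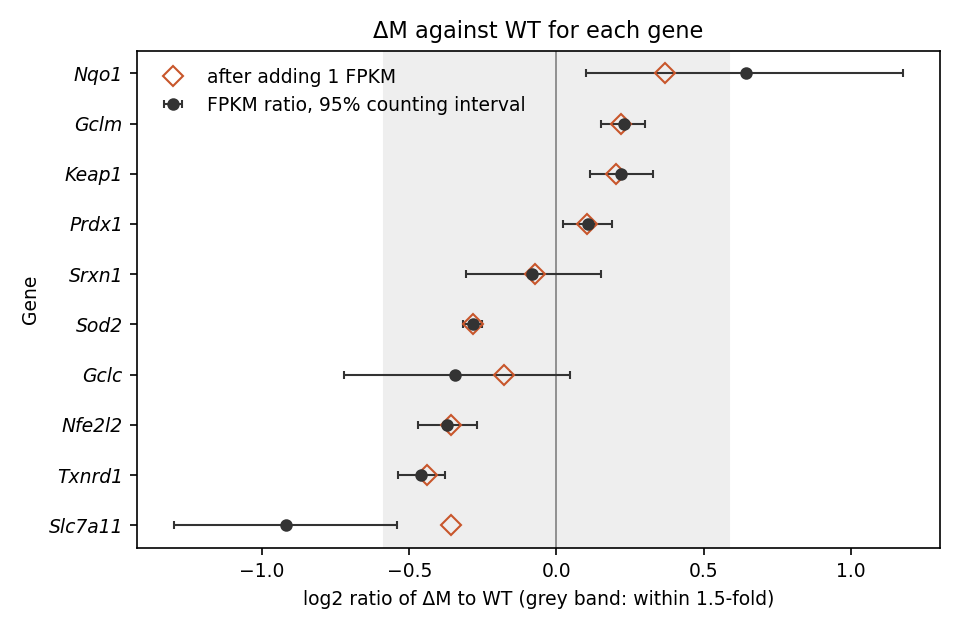
Log2 ratio of ΔM to WT for the 10 genes. Filled circles give the ratio of the FPKMs with its 95% counting interval, open diamonds the ratio after adding 1 FPKM, and the grey band spans 1.5-fold. The diamonds all lie in the band, whereas the circles of *Nqo1* and *Slc7a11* lie outside it.

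The transcription factor and its inhibitor differed between the libraries in opposite directions. *Nfe2l2* (ENSMUSG00000015839; mm9 chromosome 2, 75513570 to 75542698, minus strand) was at 31.45 FPKM in WT against 24.32 FPKM in ΔM. The level in ΔM was lower, with a log2 ratio of -0.36 after adding 1 FPKM and an FPKM ratio of 0.773 (counting interval 0.721 to 0.829), and the intervals of the libraries did not overlap. Of all genes tested, 33.1% had a larger absolute log2 ratio than *Nfe2l2*. *Keap1* (ENSMUSG00000003308; chromosome 9, 21034174 to 21043776, minus strand), the substrate adaptor that binds NRF2, was at 10.59 FPKM in WT against 12.34 FPKM in ΔM. It was higher in ΔM, with a log2 ratio of 0.20 and an FPKM ratio of 1.17 (1.08 to 1.254). *Keap1* shares 510 nt of exon with the antisense gene *Gm16754*, listed at 1.86 FPKM in WT against 1.70 FPKM in ΔM, and the methods do not say whether strand was used. Taken per length, there were 2.97 units of *Nfe2l2* RNA for each of *Keap1* in WT (2.77 to 3.18) and 1.97 in ΔM (1.83 to 2.12).

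Among the genes of glutathione supply, the modifier subunit of the rate-limiting enzyme was far above the catalytic subunit and the cystine transporter. *Slc7a11* (ENSMUSG00000027737; chromosome 3, 50168858 to 50247535, minus strand), the cystine importer subunit xCT, was at 0.87 FPKM in WT against 0.46 FPKM in ΔM, which stand for about 186 and 87.8 fragments. The counting intervals, 0.75 to 1.0 and 0.37 to 0.57 FPKM, did not overlap, and the FPKM ratio was 0.529 (0.406 to 0.686), the lowest of the 10. After adding 1 FPKM the log2 ratio was -0.36, because the added amount exceeds both values. *Gclc* (ENSMUSG00000032350; chromosome 9, 77602342 to 77642292, plus strand), the catalytic subunit of glutamate-cysteine ligase, was at 1.22 FPKM in WT against 0.96 FPKM in ΔM. These levels were not distinguishable at this depth, with an FPKM ratio of 0.787 (0.606 to 1.03). *Gclm* (ENSMUSG00000028124; chromosome 3, 121948475 to 121972902, plus strand), the modifier subunit of the same enzyme, was at 20.48 FPKM in WT against 23.98 FPKM in ΔM. It was higher in ΔM, with a log2 ratio of 0.22 and an FPKM ratio of 1.17 (1.11 to 1.23). *Gclm* shares 296 nt of exon with the antisense gene *Gm17494*, listed at 2.19 FPKM in WT against 1.53 FPKM in ΔM. RNA of *Gclm* per length exceeded that of *Gclc* by a factor of 16.8 in WT (14.2 to 20.1) and 25 in ΔM (20.4 to 30.7).

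The enzymes of thioredoxin and peroxide reduction did not share a direction. *Txnrd1* (ENSMUSG00000020250; chromosome 10, 82296696 to 82360469, plus strand), the cytosolic thioredoxin reductase, was at 27.96 FPKM in WT against 20.34 FPKM in ΔM. It was lower in ΔM, with a log2 ratio of -0.44 and an FPKM ratio of 0.727 (0.688 to 0.769). On this scale, with 1 FPKM added, 26.3% of all genes tested had a larger absolute log2 ratio. *Slc7a11* and *Nqo1* had larger differences than *Txnrd1* in the ratio of the FPKMs as deposited. *Srxn1* (ENSMUSG00000032802; chromosome 2, 151931252 to 151937112, plus strand), the sulfiredoxin that restores overoxidized peroxiredoxins, was at 7.40 FPKM in WT against 6.99 FPKM in ΔM. The FPKM ratio of 0.945 had a counting interval from 0.808 to 1.11, so a difference was not detectable at this depth. *Prdx1* (ENSMUSG00000028691; chromosome 4, 116358149 to 116373427, plus strand), a peroxiredoxin that reduces hydrogen peroxide, was at 147.15 FPKM in WT against 158.34 FPKM in ΔM. It was slightly higher in ΔM, with a log2 ratio of 0.11 and an FPKM ratio of 1.08 (1.02 to 1.14). The level of *Prdx1* comes from uniquely mapped reads, and 19.1% of the 100-nt windows of its longest transcript have a copy with at most 2 mismatches elsewhere in NCBIM37. Per length, *Txnrd1* RNA amounted to 0.19 of *Prdx1* RNA in WT (0.18 to 0.20) and to 0.128 in ΔM (0.121 to 0.136). The ratio of *Srxn1* to *Prdx1* was 0.0503 in WT (0.0449 to 0.0564) and 0.0441 in ΔM (0.0390 to 0.0499).

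**Figure D4:**
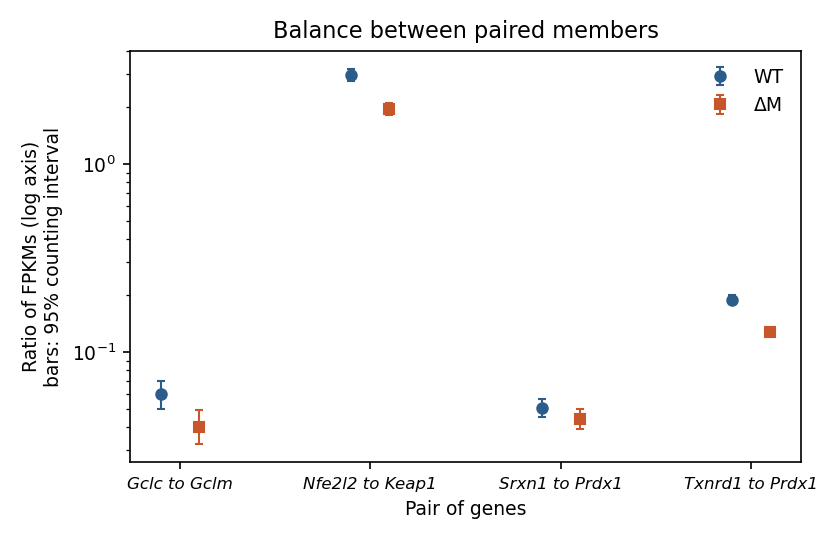
Ratio of FPKMs (log axis) between paired genes in the WT library (circles) and the ΔM library (squares), with 95% counting intervals. The intervals of *Nfe2l2* to *Keap1*, *Txnrd1* to *Prdx1* and *Gclc* to *Gclm* do not overlap between the libraries, and those of *Srxn1* to *Prdx1* do.

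*Nqo1*, the quinone reductase often used as a readout of NRF2 activity, was at 1.07 FPKM in WT against 1.67 FPKM in ΔM (ENSMUSG00000003849; chromosome 8, 109912125 to 109927106, minus strand). It was higher in ΔM, with an FPKM ratio of 1.56 and a wide counting interval from 1.07 to 2.26, since it rests on about 51.9 and 72.2 fragments, the fewest of the 10 genes. The counting intervals of the levels, 0.80 to 1.41 FPKM in WT and 1.30 to 2.10 FPKM in ΔM, overlapped. *Sod2* (ENSMUSG00000006818; chromosome 17, 13200705 to 13210985, plus strand) was at 147.63 FPKM in WT against 121.15 FPKM in ΔM. It was lower in ΔM, with a log2 ratio of -0.28 and an FPKM ratio of 0.821 (0.803 to 0.839), the narrowest interval of the 10 genes because about 19094 and 13989 fragments stand behind it. Of the windows of the *Sod2* transcript, 26.0% have a copy elsewhere in the genome, and only uniquely mapped reads were counted.

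The study reports that most mRNAs bound by TTP in the 3′ UTR were stable, and that intronic binding did not in general destabilize. It also lists *Prdx1*, *Txnrd1* and *Sod2* with overlapping 3′ UTR sites of TTP and of HuR, an mRNA-stabilizing protein. Between these libraries the 4 genes with a readable TTP site were divided in direction, and the part of TTP binding in this was not tested. *Txnrd1* and *Sod2*, with sites in the 3′ UTR and in introns, were lower in ΔM. *Nfe2l2*, with sites in introns only, was also lower. *Prdx1*, with sites in the 3′ UTR and in an exon annotated neither as coding sequence nor as UTR, was higher. The 5 genes with the element in a searched promoter window were likewise divided. *Gclm* and *Prdx1* were higher in ΔM, *Nfe2l2* and *Txnrd1* were lower, and *Srxn1* had a ratio whose interval held 1.

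Beyond the members, 63 other genes of the pathway were listed by role, and 51 of them had a mean of at least 1 FPKM. Of these, 3 were at least 1.5-fold higher and 1 at least 1.5-fold lower in ΔM, which is 7.84% of the 51, beside the 18.7% of all genes and the 10.2% of protein-coding genes given above. With 0.1 FPKM added in place of 1, 8 of the 51 passed, 6 higher and 2 lower, beside 2602 of the 10765 genes. Their median log2 ratio was 0.09. Among 8 regulators 0 passed. *Sqstm1*, the autophagy receptor p62 that competes for KEAP1, was the highest at 271.82 FPKM in WT against 224.04 FPKM in ΔM, and *Cul3*, the scaffold of the KEAP1 ubiquitin ligase, was at 29.47 and 25.38 FPKM. Both had ratios on the lower side, at -0.28 and -0.21. Of the small MAF partners of NRF2, *Mafk* was at 9.28 FPKM in WT against 14.05 FPKM in ΔM, an FPKM ratio of 1.51 (1.39 to 1.65), and *Maff* at 0.79 and 1.66 FPKM, a ratio of 2.10 (1.46 to 3.01). They stayed within 1.5-fold after adding 1 FPKM, at log2 ratios of 0.55 and 0.57, whereas *Mafg* was at 5.63 and 5.01 FPKM, with a ratio of 0.89 (0.68 to 1.16). These 3 genes were named after their values were seen.

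In glutathione synthesis and cycling, 1 of 5 genes passed and was lower in ΔM. *Gss*, the glutathione synthetase that follows glutamate-cysteine ligase, was at 9.67 FPKM in WT against 4.73 FPKM in ΔM, a log2 ratio of -0.90 and an FPKM ratio of 0.489 (0.393 to 0.609). *Gss* shares exon sequence with the antisense gene *Acss2* over 229 nt. *Gsr*, the glutathione reductase, was at 121.40 FPKM in WT against 127.27 FPKM in ΔM, and *Slc3a2*, the partner chain of xCT, at 36.42 and 33.24 FPKM. The partner chain of the cystine importer was thus abundant where *Slc7a11* was scarce.

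Of 9 glutathione peroxidases and transferases, 1 passed and was higher in ΔM. *Mgst2*, a microsomal glutathione transferase, was listed at 0.01 FPKM in WT against 3.51 FPKM in ΔM. The latter stands for about 19.8 fragments at the median transcript length of 370 nt, and for more at the longest, 2803 nt. The log2 ratio of *Mgst2*, 2.16, depends on the amount added and is no measure of the fold. *Gpx1*, the main cytosolic glutathione peroxidase, was at 53.81 FPKM in WT against 62.59 FPKM in ΔM, and *Mgst1* was at 27.57 and 26.75 FPKM.

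Of 9 thioredoxins and peroxiredoxins, 1 passed and was higher in ΔM. *Txnrd2*, the mitochondrial thioredoxin reductase, was at 4.33 FPKM in WT against 7.43 FPKM in ΔM, an FPKM ratio of 1.72 (1.24 to 2.41). Its direction was thus opposite to that of the cytosolic *Txnrd1*. *Prdx5* was the most abundant peroxiredoxin of the list at 628.97 FPKM in WT against 509.02 FPKM in ΔM, and *Txnip*, the inhibitor of thioredoxin, was at 55.75 and 47.98 FPKM.

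Of 12 genes of heme, iron, quinone and drug handling, 1 passed. *Akr1b8*, an aldo-keto reductase, was at 1.58 FPKM in WT against 3.0 FPKM in ΔM, an FPKM ratio of 1.90 (1.34 to 2.76) that rests on about 51.3 and 86.9 fragments. The ferritin chains were the highest of this list, *Fth1* at 721.74 FPKM in WT against 706.14 FPKM in ΔM and *Ftl1* at 218.67 and 273.40 FPKM. Copies elsewhere in the genome cover 94.3% of the windows of *Ftl1*, so its level is uncertain. None of 3 genes of superoxide and catalase chemistry and none of 5 genes of NADPH supply passed. In the first of these lists *Cat*, the catalase, was at 27.65 FPKM in WT against 30.09 FPKM in ΔM, and *Sod1*, the cytosolic dismutase, was at 6.77 and 6.43 FPKM. Copies elsewhere in the genome cover 56.4% of the windows of *Sod1*, so its level is uncertain and is not set against that of *Sod2*. In the second list *Tkt*, the transketolase, was at 147.89 FPKM in WT against 146.03 FPKM in ΔM, and *Taldo1*, the transaldolase, of whose windows 15.0% have a copy elsewhere, was at 23.93 and 29.40 FPKM.

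**Figure D5:**
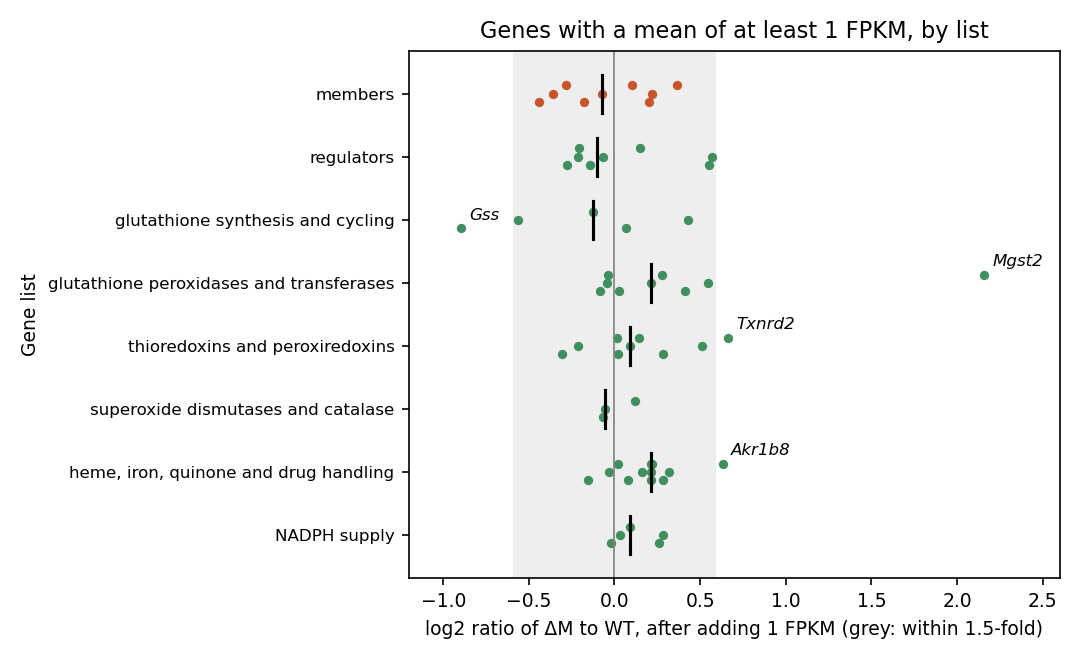
Log2 ratio of ΔM to WT after adding 1 FPKM for the members (orange) and the other genes of the pathway by list (green), each point being a gene whose mean reached 1 FPKM and each black line the median of its list. Outside the grey band of 1.5-fold lie *Mgst2*, *Txnrd2* and *Akr1b8* on the higher side and *Gss* on the lower side.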

How the data were processed

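RNA was measured in 1 WT and 1 ΔM library. The authors depleted rRNA, sequenced paired ends, removed adapters (Cutadapt), aligned to mm9 (Segemehl) and ran Cufflinks over Ensembl exons with the reads that mapped to 1 place. Deposited were FPKM values with 2 decimals, 1 value per gene, and 1 of 37451 genes had no number in ΔM. Because these are not counts, none of the tests for counts was run.

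Genotypes were compared by the log2 ratio of ΔM to WT with 1 FPKM added to both, which understates the change of low genes. A gene was called past 1.5-fold, with a mean of at least 1 FPKM. Depth and fragment length (192 nt in WT, 194 nt in ΔM) were estimated as the values at which low FPKMs of single-transcript genes become whole multiples of 1 fragment, within 0.1 of a fragment. Such multiples made up 94.5% of the low values in WT and 93.9% in ΔM, against 20% by chance. In 3 simulated libraries of 9020 genes the estimate was off by at most 3.33%. Poisson intervals of levels and exact binomial intervals of ratios (95%) used the median transcript length of GENCODE M1 (NCBIM37), which held 37039 of the genes. The intervals were tried only on counts simulated from the same Poisson model, depths and lengths, so the trial cannot show errors in these.

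Promoters are RefSeq windows on GRCm38.p6, placed on NCBIM37 by exact match. Windows of 100 nt, taken every 10 nt along the longest transcript, were searched in NCBIM37 by minimap2 2.31. The other software was Python 3.11.15 with scipy 1.17.1, numpy 2.4.6, pysam 0.24.0, pandas 2.3.3 and matplotlib 3.10.9.

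All 10 members are named. Of the pathway lists, the 2 highest genes of each and every gene past 1.5-fold are named, and the small MAF genes were added after their values were seen. No gene was ranked by likeness to a member, because 2 libraries give 1 ratio. The members, lists and tests were chosen with earlier results of these data known. Alternatives covered the amount added, the minimum, the fold, scaling and transcript length.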

Additional observations from a re-analysis of the deposited data

How the results depend on the processing

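No paired analysis was possible because each genotype has 1 library, which also means that leaving out a library could not be tried. A value counted as moved when its shift exceeded the half-width of its counting interval (for the median of the members, of their typical interval), or, for counts, a factor of 1.5. Of 88 comparisons with an alternative, 71 stayed within this range and 17 moved. Those that stayed include the change of transcript length for each of the 10 members. It alters only the interval, so the log2 ratio could not move. With 0.1 FPKM added in place of 1, the log2 ratio of *Slc7a11* was -0.79, 1 member (*Nqo1*, at 0.60) passed 1.5-fold and 8 pathway genes did. With 5 FPKM added, 2 of the 51 pathway genes and 1250 of all 10765 genes passed. At 2-fold, 1 of the 51 pathway genes and 1002 of all 10765 genes passed. At a ratio of 5 to 4, 3 members (*Nfe2l2*, *Txnrd1* and *Nqo1*) and 11 pathway genes passed, beside 3943 of all genes or 36.6%. With a minimum mean of 10 FPKM, 0 pathway genes and 890 of all genes passed, both out of fewer genes than at 1 FPKM. The sizes of these smaller sets are not given here, so the counts are not compared. Among protein-coding genes alone, with the minimum back at 1 FPKM, 822 of 8078 passed. Of these, 389 were higher and 433 lower in ΔM, whereas over all genes 1202 were higher and 808 lower. These follow from the construction of each alternative. Adding 1 FPKM to both genes of a pair gave ratios of 0.103 in WT and 0.0785 in ΔM for *Gclc* to *Gclm*, and of 0.0567 and 0.0501 for *Srxn1* to *Prdx1*. Centring and scaling moved no value of a member out of its range, and 0 members passed 1.5-fold under either. Depth limits *Nqo1*, *Gclc* and *Slc7a11* most.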
